A study of Mus musculus with 12 samples.

Results

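Tuft cells are rare chemosensory cells of the intestinal epithelium, and the transcripts of 10 genes that mark them or carry their outputs were followed in the mouse terminal ileum. The genes were taken by symbol from a deposited table of 23284 genes, as known tuft cell markers and effectors: Dclk1, Trpm5, Pou2f3, Il25, Gfi1b, Alox5, Ptgs1, Avil, Chat and Sucnr1. All 10 were in the table, and the rule takes them by name and not by a measured value, though earlier results of these data were known when they were listed. RNA was sequenced from 12 male mice in 4 groups of 3, with 1 library per mouse. The groups were mice labelled Rag1-/-, which lack the recombinase needed to form T and B cells; Tcra-/- mice, which lack the T cell receptor alpha chain, co-housed for 4 to 8 weeks in a cage shared with an equal number of wild type (WT) mice; Tcra-/- mice housed separately; and WT C57BL/6 mice. All mice came from Taconic through an NIAID contract and were kept specific pathogen free. The design compares Rag1-/- with WT mice and co-housed with separately housed Tcra-/- mice. The sources used here give neither the cage of each mouse nor the number of cages, so the tests measure spread among mice and not among cages.

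Tuft cells bear an apical tuft of microvilli and sense luminal molecules with parts of the taste cascade: a receptor acts through a G protein and a phospholipase to release calcium, which opens the cation channel Trpm5. The transcription factor Pou2f3 is needed for the lineage. In the small intestine tuft cells are the main epithelial source of interleukin 25 (Il25), which acts on group 2 innate lymphoid cells, and they also make leukotrienes, prostaglandins and acetylcholine. Succinate released by gut microbes and protists is sensed through the receptor Sucnr1.

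Start-site sequences are shown for the members whose promoters hold the octamer core bound by POU family factors such as Pou2f3, and for Trpm5, which had the largest difference among the members called below. Each run is 300 bases, 250 before to 50 after the RefSeq start site on GRCm38.p6, read 5′ to 3′ on the strand of the gene. Capitals mark ATGCAAA, or TTTGCAT where the match is on the opposite strand. The windows are chr3:60081619-60081918 (+ strand) for Sucnr1, chr10:127000459-127000758 (+) for Avil and chr7:143094593-143094892 (-) for Trpm5.
Sucnr1: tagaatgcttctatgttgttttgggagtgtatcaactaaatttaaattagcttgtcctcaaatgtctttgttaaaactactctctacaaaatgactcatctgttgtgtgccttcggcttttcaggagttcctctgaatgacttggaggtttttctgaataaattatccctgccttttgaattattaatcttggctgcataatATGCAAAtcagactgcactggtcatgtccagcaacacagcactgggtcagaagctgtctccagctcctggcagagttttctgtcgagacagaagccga
Avil: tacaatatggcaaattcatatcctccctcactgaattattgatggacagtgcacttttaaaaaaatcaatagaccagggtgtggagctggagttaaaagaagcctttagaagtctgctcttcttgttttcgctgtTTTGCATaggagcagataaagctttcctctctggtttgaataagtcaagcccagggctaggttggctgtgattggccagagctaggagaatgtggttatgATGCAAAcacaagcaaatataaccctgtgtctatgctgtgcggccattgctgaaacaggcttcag
Trpm5: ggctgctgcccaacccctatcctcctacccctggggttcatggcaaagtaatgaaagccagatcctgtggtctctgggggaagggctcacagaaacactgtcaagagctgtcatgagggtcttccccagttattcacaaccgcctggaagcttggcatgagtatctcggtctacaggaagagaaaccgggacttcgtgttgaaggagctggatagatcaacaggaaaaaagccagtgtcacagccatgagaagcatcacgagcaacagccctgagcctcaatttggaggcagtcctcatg
RefSeq start windows were matched for 8 of the 10 members, 9 windows in all since Dclk1 had 2, and Pou2f3 and Il25 had none in the table used. The core lay 48 bases before the start in Sucnr1, where it is part of a full octamer ATGCAAAT, and 115 and 15 bases before it in Avil. It was in 2 of the 8 members, and in 4.63% of all 32851 start windows of the same length (1520). The full octamer was in 1.74% of them (570). A match describes letters only, and the windows of the other 6 members held none.

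Total counts per library ran from 37061276 to 50581616. Of 23284 genes, 15866 had enough reads to be tested, among them 9 of the 10 tuft genes; Il25 did not pass the filter on low counts. Values are given in counts per 1000000 reads of the scaled library (CPM), and differences as log2 fold changes with their standard error (SE) and a p adjusted over all genes tested (edgeR's quasi-likelihood test, two-sided, Benjamini-Hochberg). A gene was called, and is said to have risen or fallen, where the adjusted p was under 0.01 as in the design text. Rag1 itself averaged 1.81 ± 0.166 CPM in the mice labelled Rag1-/- and had 0 reads in WT mice (SD, n = 3), and since the sources do not say which part is deleted these reads do not check the label. Summed transcripts of 8 B cell genes were 2.13 to 2.79 CPM in mice labelled Rag1-/-, against 149 to 183 CPM in WT mice. Together, 10 epithelial marker genes reached 15659 to 18050.0 CPM in each of the 12 mice, and all 10 tuft genes had reads in every group.

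In mice labelled Rag1-/-, 3 tuft genes fell, none rose and 6 of the 9 tested did not pass. The kinase gene Dclk1 was 1.67-fold lower than in WT mice, the channel gene Trpm5 1.93-fold lower and the cyclooxygenase gene Ptgs1 1.36-fold lower. Over all genes, 20.9% were called, 1494 higher (9.42%) and 1820 lower (11.5%). The median log2 fold change was -0.48 over the 9 tuft genes and -0.02 over all genes tested. In 5 of the 9, every Rag1-/- mouse was below every WT mouse, as were 23.5% of all genes tested. With scaling by library size alone the median of all genes was -0.19 and the calls split into 713 higher and 3218 lower.

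Between the Tcra-/- groups, 7 tuft genes fell in co-housed mice, none rose and 2 did not pass. Trpm5 was 2.94-fold lower in co-housed than in separately housed mice, Sucnr1 2.47-fold, Dclk1 2.12-fold, the lipoxygenase gene Alox5 2.05-fold, Pou2f3 2.01-fold, the actin-binding protein gene Avil 1.78-fold and Ptgs1 1.39-fold. This comparison called 38.8% of all genes, 3347 higher (21.1%) and 2809 lower (17.7%). The median was -1.03 over the 9 tuft genes and -0.01 over all genes tested. In 8 of the 9, every co-housed mouse was below every separately housed mouse, as were 27.8% of all genes tested. With library size alone the median of all genes was -0.12 and the split 2480 higher and 3695 lower. The count of 7 was 3 without the co-housed mouse TCRaCox3155 and 4 without the separately housed mouse TCRaSepxT3.

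**Figure D1:**
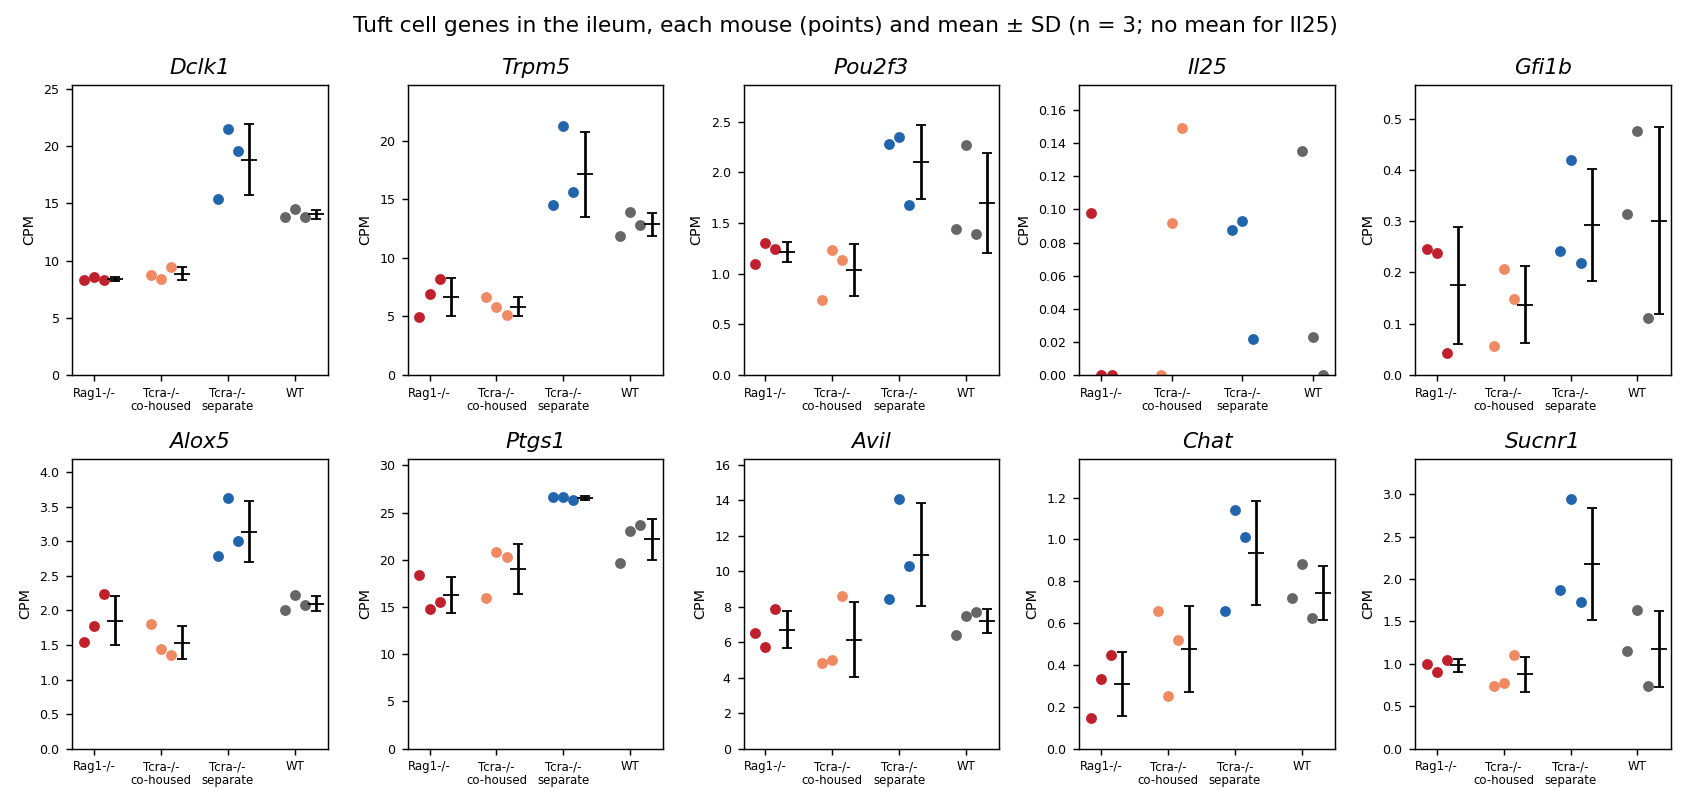
CPM of each tuft gene (vertical axes, each from 0) in the 12 mice, grouped as Rag1-/-, co-housed Tcra-/-, separately housed Tcra-/- and WT; points are mice and bars the mean and SD of 3, omitted for Il25 with its 30 reads in all. For Dclk1, Trpm5 and Pou2f3 all 6 Rag1-/- and co-housed mice lie below all 6 separately housed and WT mice, as for 10.8% of all genes tested.

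Among the sensing genes, Trpm5 (mm9 chr7:150257434-150280547, - strand) encodes the calcium-activated channel at the end of the taste cascade. It had 4.92, 6.94 and 8.15 CPM in mice labelled Rag1-/-, 6.65, 5.78 and 5.08 CPM in co-housed mice, 14.5, 21.3 and 15.6 CPM in separately housed mice and 11.9, 13.9 and 12.8 CPM in WT mice. The highest of the 6 Rag1-/- and co-housed mice, at 8.15 CPM, was below the lowest of the other 6, a WT mouse at 11.9 CPM. The log2 fold change was -0.95 in Rag1-/- against WT mice (SE 0.18, adjusted p = 0.000797) and -1.55 in co-housed against separately housed mice (SE 0.18, adjusted p = 4.5e-06). Both calls held in each of 12 alternative settings.

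Sucnr1 (chr3:59885791-59891488, + strand), the succinate receptor shown above with the octamer, had 1.00, 0.901 and 1.05 CPM in mice labelled Rag1-/-, 0.743, 0.777 and 1.11 CPM in co-housed mice, 1.87, 2.94 and 1.73 CPM in separately housed mice and 1.15, 1.63 and 0.738 CPM in WT mice. The separately housed mice were the 3 highest of the 12, and the WT mice spanned the range of both low groups. Sucnr1 fell in co-housed against separately housed mice (log2 fold change -1.30, SE 0.31, adjusted p = 0.00203). That call ended without TCRaCox3155 (adjusted p = 0.0104), TCRaCox3156 (0.0111) or TCRaSepxT3 (0.0159). In Rag1-/- against WT mice the log2 fold change was -0.25 with a 95% interval of -0.96 to 0.46, and without the mouse WTB6x3160 it was 0.06.

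Of the transcription factors, Pou2f3 (chr9:42932022-43013838, - strand), the lineage factor, had 1.10, 1.30 and 1.24 CPM in mice labelled Rag1-/-, 0.743, 1.23 and 1.14 CPM in co-housed mice, 2.28, 2.35 and 1.68 CPM in separately housed mice and 1.44, 2.27 and 1.39 CPM in WT mice. The 6 Rag1-/- and co-housed mice were again all below the other 6, by a margin of 1.30 against 1.39 CPM at the nearest. Pou2f3 fell in co-housed against separately housed mice (log2 fold change -1.01, SE 0.26, adjusted p = 0.00437), which did not pass without TCRaCox3155 (adjusted p = 0.0232), TCRaSepxT2 (0.0171) or TCRaSepxT3 (0.0189). In Rag1-/- against WT mice the log2 fold change was -0.48 (SE 0.26, adjusted p = 0.180).

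Gfi1b (chr2:28464970-28477502, - strand), a zinc finger repressor found in tuft cells and in megakaryocytes and erythroid cells, was near the detection limit. It had 22 reads in the 3 Rag1-/- mice, 17 in co-housed, 39 in separately housed and 40 in WT mice, and single mice held 2 to 21 reads. Its log2 fold change was -0.80 in Rag1-/- against WT mice (SE 0.62, adjusted p = 0.367) and -1.03 in co-housed against separately housed mice (SE 0.65, adjusted p = 0.200), and the 95% intervals of -2.24 to 0.64 and -2.54 to 0.47 cover changes of either sign. Summed CPM of 9 megakaryocyte and erythroid markers was 4.78 to 6.56 in Rag1-/-, 6.68 to 7.90 in co-housed, 5.07 to 6.36 in separately housed and 5.78 to 8.23 in WT mice, and none of the 5 tested was called in either comparison.

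Dclk1 (chr3:55046448-55342990, + strand) encodes a microtubule-linked kinase and is the usual marker of mouse tuft cells, though neurons express it as well. It had 8.30, 8.58 and 8.30 CPM in mice labelled Rag1-/-, 8.77, 8.37 and 9.46 CPM in co-housed mice, 15.4, 21.5 and 19.6 CPM in separately housed mice and 13.8, 14.5 and 13.8 CPM in WT mice. Mice within the Rag1-/- and WT groups hardly differed, and the highest Rag1-/- or co-housed value of 9.46 CPM was well under the lowest WT value of 13.8 CPM. Dclk1 fell in Rag1-/- against WT mice (log2 fold change -0.74, SE 0.12, adjusted p = 0.000140) and in co-housed against separately housed mice (-1.08, SE 0.12, adjusted p = 1.5e-06), and both calls held in all 12 alternatives.

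Avil (chr10:126437765-126458050, + strand) encodes advillin, an actin-binding protein of the tuft cytoskeleton that sensory neurons also make. It had 6.54, 5.76 and 7.85 CPM in mice labelled Rag1-/-, 4.83, 5.01 and 8.62 CPM in co-housed mice, 8.45, 14.1 and 10.3 CPM in separately housed mice and 6.43, 7.46 and 7.71 CPM in WT mice. The co-housed mouse TCRaCox3157 overlapped the separately housed mice, and Rag1-/- and WT mice overlapped as well. Avil fell in co-housed against separately housed mice (log2 fold change -0.83, SE 0.23, adjusted p = 0.00648). The call ended in a fit of those 6 libraries alone (adjusted p = 0.0246) and without TCRaCox3155 (0.0321), TCRaCox3156 (0.0339), TCRaSepxT3 (0.0375) or TCRaSepxT4 (0.0157). In Rag1-/- against WT mice the log2 fold change was -0.10 (SE 0.23, adjusted p = 0.782), and without RAG1x3164 it was 0.00.

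Of the effector genes, Il25 (chr14:55551532-55554673, + strand) had 4 reads in the 3 Rag1-/- mice, 10 in co-housed, 9 in separately housed and 7 in WT mice. Exact Poisson intervals (95%, counting error only) were 1.09 to 10.2 reads in Rag1-/-, 4.80 to 18.4 in co-housed, 4.12 to 17.1 in separately housed and 2.81 to 14.4 in WT mice. The intervals overlap, but overlap is not a test of a difference. Il25 was not tested, and counts this low were not read as a difference or as its absence.

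Ptgs1 (chr2:36085946-36107789, + strand), the constitutive cyclooxygenase that opens prostaglandin synthesis in tuft and many stromal cells, had 18.4, 14.8 and 15.5 CPM in mice labelled Rag1-/-, 16.0, 20.8 and 20.3 CPM in co-housed mice, 26.7, 26.7 and 26.3 CPM in separately housed mice and 19.7, 23.1 and 23.7 CPM in WT mice. All Rag1-/- mice were below all WT mice and all co-housed below all separately housed mice, while co-housed and WT mice overlapped. The log2 fold change was -0.45 in Rag1-/- against WT mice (SE 0.11, adjusted p = 0.00608). That call ended without RAG1x3164 (adjusted p = 0.0361), RAG1x3168 (0.0269), WTB6x3160 (0.0251) or WTB6x3167 (0.0284). It was -0.48 in co-housed against separately housed mice (SE 0.11, adjusted p = 0.00191), which did not pass without TCRaCox3155 (0.0128).

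Alox5 (chr6:116360089-116411196, - strand), the lipoxygenase that starts leukotriene synthesis in tuft and myeloid cells, had 1.54, 1.78 and 2.24 CPM in mice labelled Rag1-/-, 1.80, 1.44 and 1.36 CPM in co-housed mice, 2.79, 3.63 and 3.0 CPM in separately housed mice and 2.0, 2.22 and 2.08 CPM in WT mice. The separately housed mice were above the other 9, and the Rag1-/- mice overlapped the WT mice. Alox5 fell in co-housed against separately housed mice (log2 fold change -1.04, SE 0.20, adjusted p = 0.000455), a call that held in all 12 alternatives. All 11 tested myeloid markers rose in the same comparison, with summed CPM of 235 to 379.7 in co-housed and 119 to 149 in separately housed mice. In Rag1-/- against WT mice the log2 fold change was -0.18 (SE 0.20, adjusted p = 0.554).

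Chat (chr14:33221389-33279095, - strand) encodes the enzyme that makes acetylcholine in tuft cells, enteric neurons and some lymphocytes. It had 41 reads in the 3 Rag1-/- mice, 55 in co-housed, 125 in separately housed and 99 in WT mice. Its levels were 0.147, 0.332 and 0.448 CPM in Rag1-/- mice, 0.657, 0.251 and 0.520 CPM in co-housed mice, 0.658, 1.14 and 1.01 CPM in separately housed mice and 0.720, 0.884 and 0.626 CPM in WT mice. All Rag1-/- mice were below all WT mice, and the highest co-housed mouse came within 0.657 against 0.658 CPM of the lowest separately housed mouse. Neither difference passed: -1.24 on the log2 scale in Rag1-/- against WT mice (SE 0.42, adjusted p = 0.0347) and -0.99 in co-housed against separately housed mice (SE 0.40, adjusted p = 0.0511). The vesicular acetylcholine transporter gene Slc18a3 lies inside the span of Chat, but no member shares exon bases with another gene of the table.

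**Figure D2:**
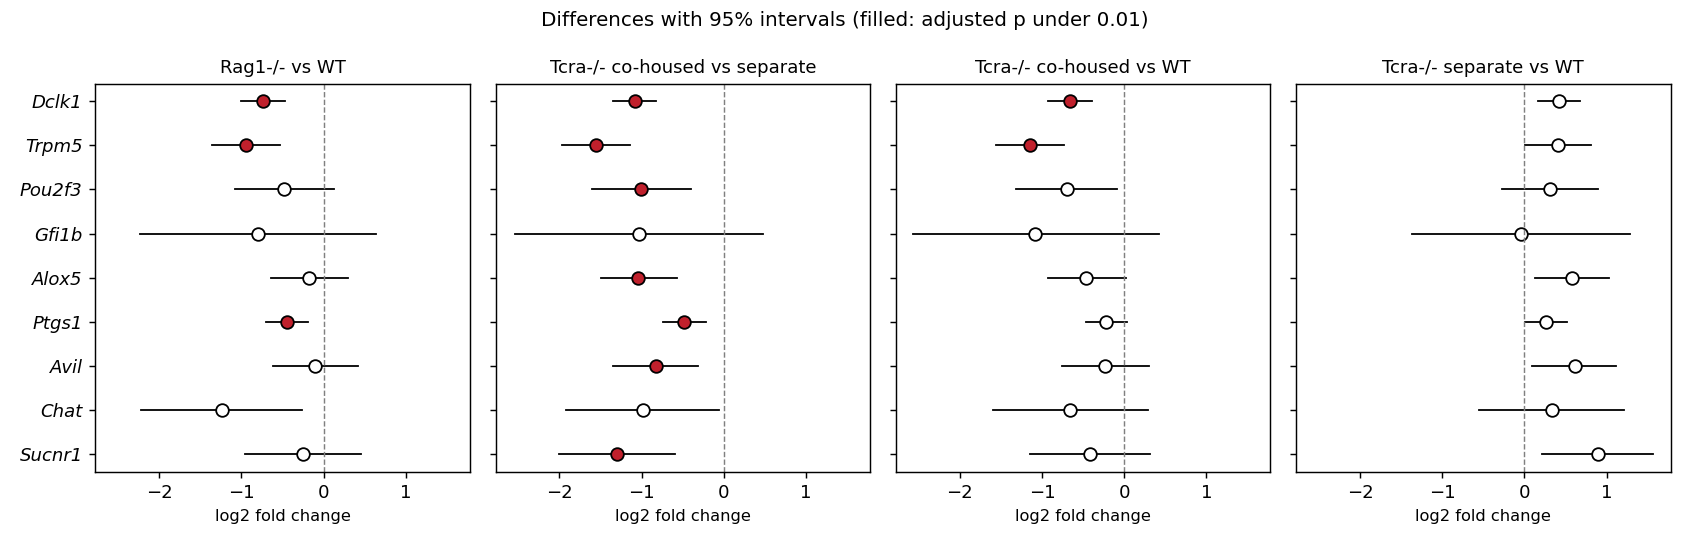
Log2 fold change (horizontal axes) of the 9 tested tuft genes in 4 comparisons, each with its 95% interval; filled points were called at an adjusted p under 0.01 and the dashed line marks no difference. Filled points lie left of the line for 3 genes in Rag1-/- against WT mice, 7 in co-housed against separately housed mice and 2 in co-housed against WT mice, with none in separately housed against WT mice.

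Each Tcra-/- group was also set against WT mice, which are the same WT mice as in the Rag1-/- comparison. Co-housed mice had 2 tuft genes lower than WT mice and none higher, where 18.5% of all genes were called (9.34% higher and 9.19% lower). These were Trpm5 (log2 fold change -1.14, SE 0.18, adjusted p = 0.000232) and Dclk1 (-0.66, SE 0.12, adjusted p = 0.000491), and both held in all 12 alternatives. All calls were 1482 higher and 1458 lower, and 795 higher and 2449 lower with library size alone. Pou2f3 was at -0.70 (adjusted p = 0.0594) and the median of the 9 was -0.66, against 0.00 over all genes tested.

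In separately housed against WT mice no tuft gene passed, where 13.8% of all genes were called, 6.06% higher and 7.70% lower. The estimate was above 0 for 8 of the 9 tested members, Gfi1b being the exception at -0.04, and the median was 0.41 against 0.00 over all genes tested. Every separately housed mouse was above every WT mouse for Dclk1, Trpm5, Alox5, Ptgs1, Avil and Sucnr1, as for 20.9% of all genes tested. These 6 genes had an unadjusted p under 0.05, as did 36.3% of all genes tested, and 17.8% of all genes had such a p with a higher level in separately housed mice. Sucnr1 had the largest estimate, 0.89 (SE 0.29, adjusted p = 0.0371), and Dclk1 the smallest adjusted p, 0.0131 for a log2 fold change of 0.42 (SE 0.11). DESeq2 called 1 gene, Dclk1, and so did the edgeR test without TCRaSepxT2.

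For 8 of the 9 tested members the mean was therefore highest in separately housed mice and second in WT mice, with Rag1-/- and co-housed mice below in either order; Gfi1b was highest in WT mice. The ranges of Rag1-/- and co-housed mice overlapped in all 9, and those of separately housed and WT mice in Pou2f3, Gfi1b and Chat. The share of all genes tested with this order of means or with these overlaps was not counted. The counts therefore describe the members and do not say how unusual they are. Single mice stood out across genes: TCRaSepxT3 was the highest of its group in 8 of 9 members and WTB6x3160 in 7 of 9. Per kilobase of merged exon, which allows genes to be compared, the level in WT mice was highest for Ptgs1 (7.73 ± 0.756 CPM per kb), followed by Trpm5 (2.94 ± 0.233), Avil (2.37 ± 0.223) and Dclk1 (1.08 ± 0.0307), and lowest for Gfi1b (0.165 ± 0.100) and Il25 (0.0494 ± 0.0680) (SD, n = 3).

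The summed level of the 10 genes was 42.6 ± 2.10 CPM in Rag1-/-, 44.0 ± 3.80 CPM in co-housed, 82.2 ± 10.8 CPM in separately housed and 62.3 ± 4.50 CPM in WT mice (SD, n = 3). Single mice ran from 40.7 to 44.8 CPM in the Rag1-/- group, from 40.2 to 47.8 CPM in the co-housed, from 73.0 to 94.2 CPM in the separately housed and from 57.5 to 66.5 CPM in the WT group. The Rag1-/- and co-housed mice thus overlapped each other and lay below all separately housed and WT mice. Ptgs1, Dclk1 and Trpm5 make up most of this sum. As a ratio to the summed CPM of the 10 epithelial markers, times 1000, the tuft sum was 2.59 ± 0.0770 in Rag1-/-, 2.72 ± 0.357 in co-housed, 4.88 ± 0.746 in separately housed and 3.57 ± 0.229 in WT mice. The 10 epithelial markers were not all steady. Vil1 and Epcam fell and Elf3 rose in Rag1-/- against WT mice. In co-housed against separately housed mice Vil1, Krt18 and Epcam fell and Elf3 rose. In bulk tissue, fewer tuft cells, less RNA per tuft cell and a change in other cells that make Ptgs1, Dclk1 or Avil cannot be told apart.

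**Figure D3:**
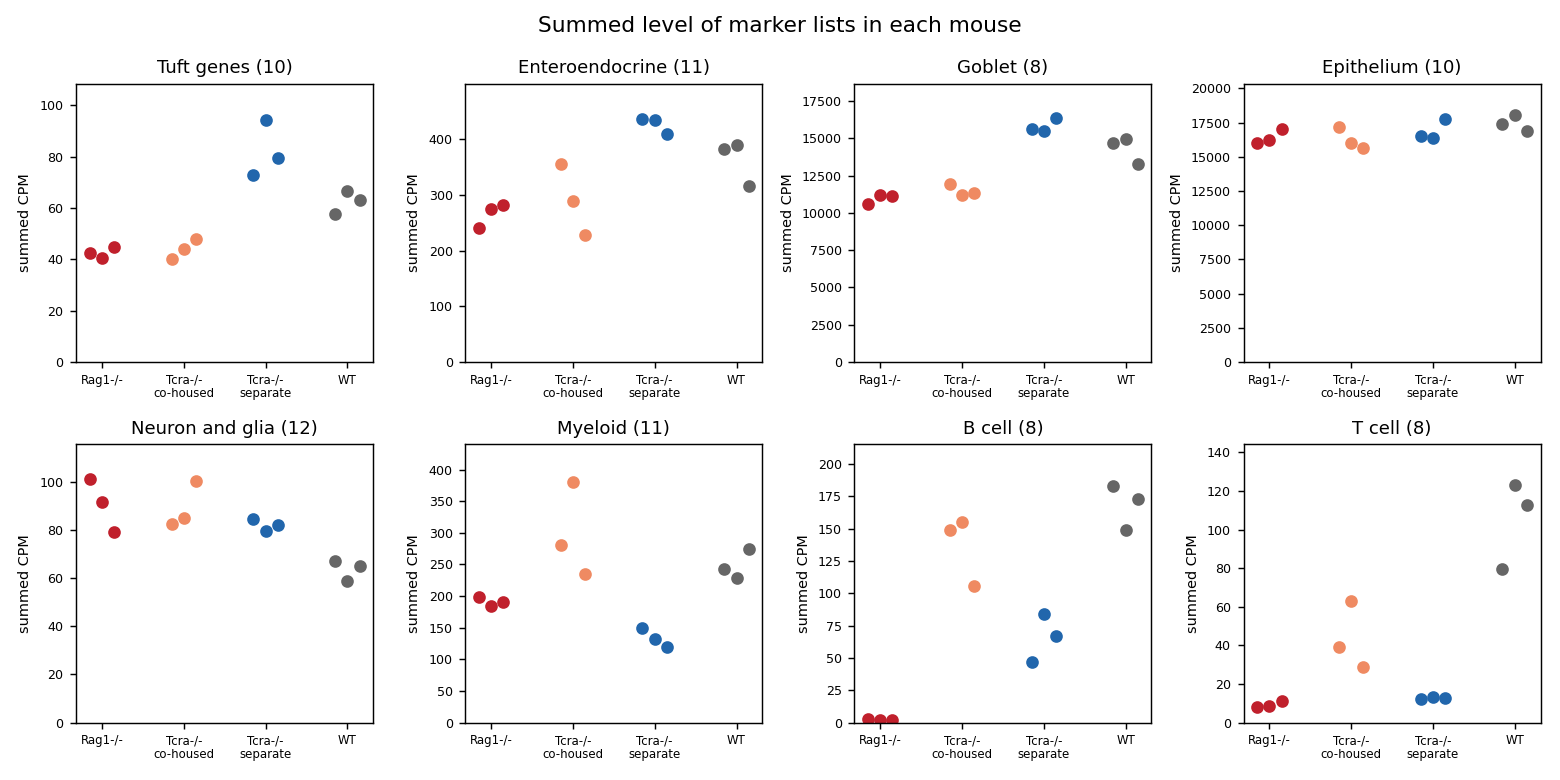
Summed CPM (vertical axes, from 0) of the tuft genes and of 7 marker lists for other cells in each mouse, with the number of genes summed in brackets and the groups as Rag1-/-, co-housed Tcra-/-, separately housed Tcra-/- and WT. The tuft, goblet and enteroendocrine sums are lower in Rag1-/- and co-housed mice than in separately housed mice. For the tuft and goblet sums the Rag1-/- and co-housed mice also lie below all WT mice. The T cell sum is 8.13 to 11.4 CPM in Rag1-/- and 79.5 to 123 CPM in WT mice.

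For the lists that follow, the shares of all genes called were 9.42% higher and 11.5% lower in Rag1-/- against WT mice. In co-housed against separately housed mice they were 21.1% higher and 17.7% lower. The taste-type signalling genes around Trpm5 were the first list. Of 10 tested besides Trpm5, 3 fell and none rose in Rag1-/- against WT mice: the phospholipase gene Plcb2 averaged 4.27 CPM in Rag1-/- and 7.78 CPM in WT mice (log2 fold change -0.86, adjusted p = 0.000863), Rgs13, a regulator of G protein signalling, was 1.95-fold lower (-0.97, adjusted p = 0.00258), and Plcg2, a phospholipase also of B and myeloid cells, 1.29-fold lower (-0.37, adjusted p = 0.00863). The Rgs13 call ended without RAG1x3163, RAG1x3164 or WTB6x3159 (adjusted p of 0.0115 to 0.0164), and that of Plcg2 in 6 alternatives (0.0102 to 0.0520). In co-housed against separately housed mice 2 fell, 1 rose and 7 did not pass, no larger a share called than the 38.8% of all genes. Gnat3, the gustducin alpha subunit, averaged 0.498 CPM in co-housed and 1.41 CPM in separately housed mice (log2 fold change -1.50, SE 0.31, adjusted p = 0.000654), and Rgs13 was 2.53-fold lower (-1.34, SE 0.22, adjusted p = 9.3e-05). Itpr3, the calcium release channel, which other epithelial cells express as well, rose to 142 CPM in co-housed mice, against 113 CPM in separately housed mice (0.33, SE 0.08, adjusted p = 0.00314), a call that ended with library size alone (0.0353) and without TCRaSepxT2 (0.0187).

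**Figure D4:**
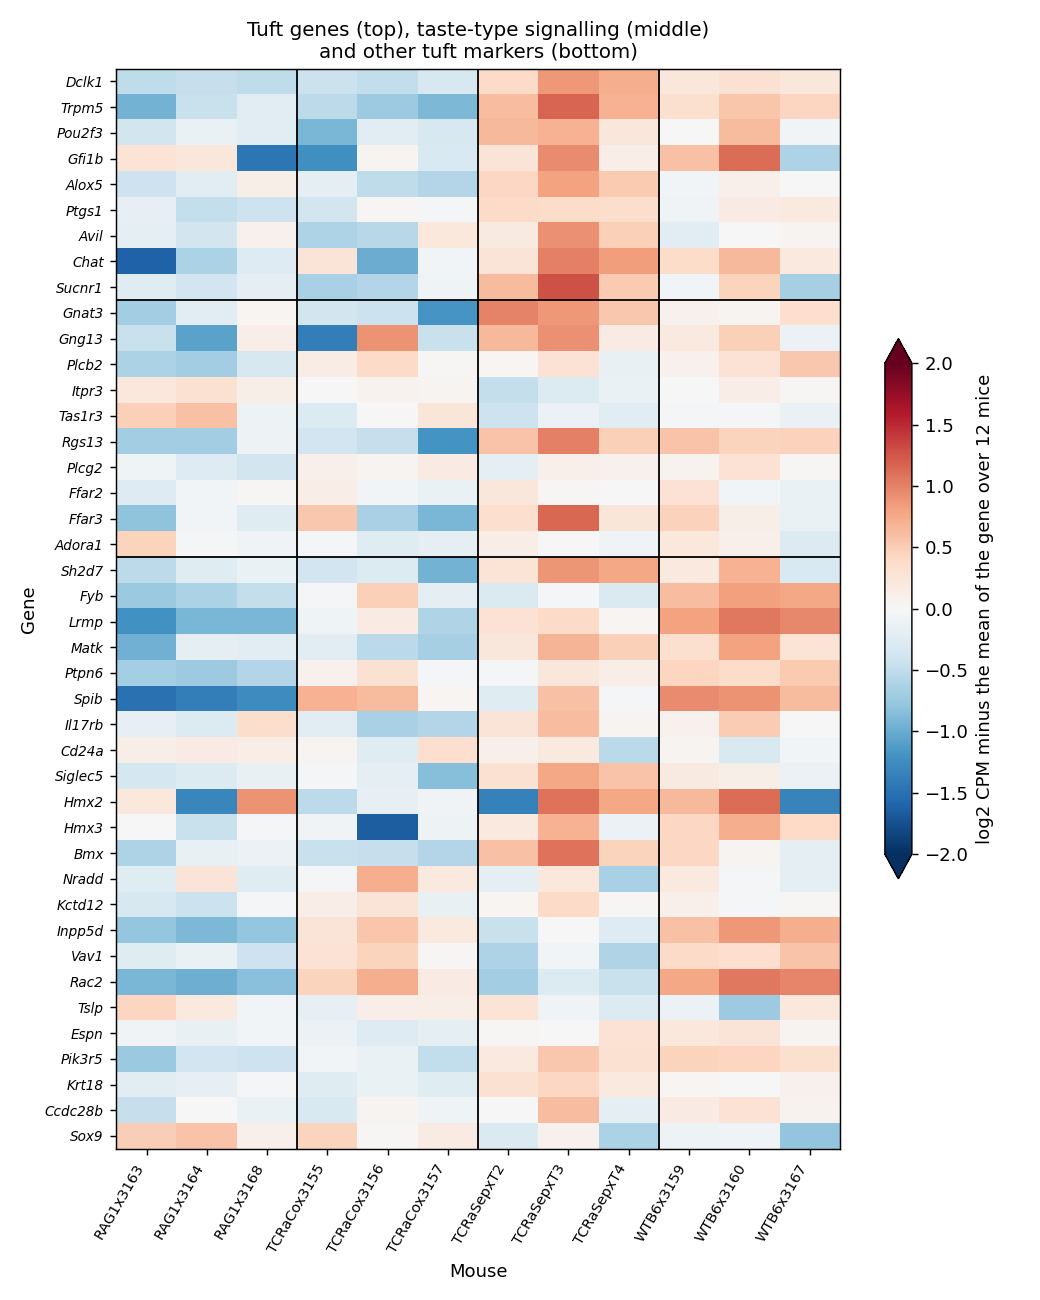
Log2 CPM of each gene minus its mean over the 12 mice (colour) for the 9 tested tuft genes, taste-type signalling genes and other tuft markers (rows), with mice in columns by group; vertical lines part Rag1-/-, co-housed Tcra-/-, separately housed Tcra-/- and WT mice. Dclk1, Trpm5 and Pou2f3 are below their mean in each of the first 6 columns, while single Rag1-/- or co-housed mice are above it in rows such as Gfi1b, Chat and Avil; rows such as Lrmp, Spib and Rac2 are low in the first 3 and differ from them in the co-housed mice.

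A wider list of tuft markers holds many genes that leukocytes also make. Of 24 tested, 10 fell and none rose in Rag1-/- against WT mice. The smallest p belonged to Rac2 (3.60-fold lower in Rag1-/- mice), Ptpn6 (2.16-fold lower) and Inpp5d (2.92-fold lower), signalling genes of leukocytes in general. Among the others that fell, Fyb, Lrmp, Spib, Vav1, Pik3r5 and Matk are likewise made by leukocytes, and 8 of 8 B cell and 8 of 8 T cell markers fell in the same comparison; their part in the result was not tested. In co-housed against separately housed mice 9 fell and 3 rose. Among those that fell were Krt18, a keratin of simple epithelia (208 CPM in co-housed and 297 CPM in separately housed mice, log2 fold change -0.51, adjusted p = 1.9e-05), the kinase gene Bmx (-1.26, adjusted p = 0.000288), the adaptor gene Sh2d7 (-1.20, adjusted p = 0.000917), Siglec5 (-0.89, adjusted p = 0.00109), Matk, Pik3r5, Espn and Il17rb. Those that rose, Rac2, Inpp5d and Vav1, did so beside 11 of 11 myeloid, 4 of 8 B cell and 6 of 8 T cell markers, whose part was not tested. Neither Sh2d7 nor Bmx overlapped between the housing groups: Sh2d7 had 3.77, 4.07 and 2.55 CPM in co-housed mice, against 6.01, 9.25 and 8.55 CPM in separately housed mice. The calls of Matk, Pik3r5, Il17rb, Inpp5d, Espn and Vav1 in this comparison each ended under at least 1 alternative, with adjusted p of 0.0101 to 0.0442 there. In Rag1-/- against WT mice those of Matk (0.0251 and 0.0314) and Vav1 (0.0120 and 0.0135) ended under 2 each.

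Of the eicosanoid genes other than the members, 3 rose and 3 fell among 15 tested in Rag1-/- against WT mice, and 5 rose and 3 fell in co-housed against separately housed mice. Some of these calls ended under alternatives: in Rag1-/- against WT mice that of Pla2g2a, a secreted phospholipase that rose, without any 1 of the 6 mice (adjusted p of 0.0128 to 0.0272) and that of Lta4h, which makes leukotriene B4 and fell, in 7 of 12 (0.0117 to 0.0323). In co-housed against separately housed mice that of Pla2g2a, higher, ended in 3 (0.0115 to 0.0474) and that of Lta4h, lower, in 4 (0.0128 to 0.0223). Hpgd, which inactivates prostaglandins in enterocytes and elsewhere, had the smallest p in both comparisons. It averaged 81.1 CPM in Rag1-/- and 269.9 CPM in WT mice (log2 fold change -1.73, SE 0.14, adjusted p = 8.9e-07), and 78.8 CPM in co-housed and 441 CPM in separately housed mice (-2.48, SE 0.14, adjusted p = 2.2e-08). Ptges3, a prostaglandin E synthase, rose in Rag1-/- against WT mice (0.37, adjusted p = 0.000837), a call that ended with library size alone (0.0385), and in co-housed against separately housed mice (0.76, adjusted p = 3.8e-07). Ltc4s, which makes leukotriene C4 downstream of Alox5, averaged 1.36 CPM in co-housed and 2.56 CPM in separately housed mice (-0.91, SE 0.24, adjusted p = 0.00420), which did not pass without any 1 of 5 libraries (0.0105 to 0.0227). Alox5ap, the partner protein of Alox5, averaged 2.78 CPM in co-housed and 4.16 CPM in separately housed mice and did not pass (-0.58, adjusted p = 0.0594). Tbxas1, the thromboxane synthase also of macrophages, rose in co-housed against separately housed mice (1.82, SE 0.25, adjusted p = 1.8e-05), and Hpgds, which makes prostaglandin D2 in mast cells and tuft cells, fell in Rag1-/- against WT mice (-0.84, SE 0.16, adjusted p = 0.000867).

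Of the 9 cholinergic genes besides Chat, 1 rose and 1 fell in Rag1-/- against WT mice, and 2 rose and 2 fell in co-housed against separately housed mice. No rise held in every alternative. The call of Chrnb4, a nicotinic receptor subunit, higher in both, ended in 6 of 12 in Rag1-/- against WT mice (adjusted p of 0.0143 to 0.0275) and in 5 in co-housed against separately housed mice (0.0125 to 0.0335). Those of the acetylcholinesterase gene Ache, higher, and the receptor subunit gene Chrna3, lower in co-housed mice, ended in 8 (0.0101 to 0.0502) and in 3 (0.0192 to 0.0317). Bche, which breaks acetylcholine down, averaged 87.5 CPM in Rag1-/- and 149.8 CPM in WT mice (log2 fold change -0.78, SE 0.09, adjusted p = 6.3e-06), and 74.4 CPM in co-housed and 213 CPM in separately housed mice (-1.52, SE 0.09, adjusted p = 3.5e-09). Slc18a3 and Slc5a7, which load and recycle acetylcholine and its choline in neurons, did not pass in either. Summed CPM of 12 neuron and glia markers was 79.0 to 101 in Rag1-/-, 82.6 to 100.4 in co-housed, 79.6 to 84.6 in separately housed and 58.9 to 67.1 in WT mice. Most of the higher sum in Rag1-/- mice came from Ret, at 30.2 CPM in Rag1-/- and 8.5 CPM in WT mice, the only 1 of the 12 called there, and the median log2 fold change of the list was 0.02. In co-housed against separately housed mice the median was -0.57. There Snap25, a protein of synaptic vesicle release, fell (-0.92, adjusted p = 0.000886), as did Uchl1 (-0.65, adjusted p = 0.00522), while Ret rose (0.77, adjusted p = 0.00629). The Uchl1 and Ret calls ended in 4 and 6 alternatives, with adjusted p of 0.0101 to 0.0358. Between the housing groups 2 of the 12 neuron and glia markers thus fell, 1 rose and 9 were not called, where 38.8% of all genes were called. Their summed CPM was not lower in co-housed mice. Vip, which was not called, averaged 38.7 CPM in co-housed and 27.7 CPM in separately housed mice. The part of neurons in the levels of Chat, Dclk1 and Avil was not tested.

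Il13, Il5, Il4 and Il9, the cytokines of group 2 innate lymphoid cells, had 0 to 11 reads per group and were under the filter. Of 14 genes listed for these cells that were tested, Hpgds and Il17ra fell and none rose in Rag1-/- against WT mice. In co-housed against separately housed mice Crlf2 rose and Il17rb, a subunit of the Il25 receptor, fell. Il17rb averaged 2.41 CPM in co-housed and 4.23 CPM in separately housed mice (log2 fold change -0.81, SE 0.22, adjusted p = 0.00576, but 0.0127 to 0.0365 in 4 alternatives). The Il17rb call was also counted in the wider list of tuft markers and that of Hpgds among the eicosanoid genes. Neither call is particular to group 2 innate lymphoid cells. A list for the epithelial response to type 2 cytokines also held the receptor and signalling genes Il4ra, Il13ra1 and Stat6. It shared Mcpt1 and Mcpt2 with the mast cell list and held Retnla and Arg1, so it is not of epithelial genes alone. Of 14 tested, 6 rose and none fell in Rag1-/- against WT mice: Retnlb, Retnla, Sprr2a1, Il4ra, Dmbt1 and Il13ra1. In co-housed against separately housed mice 7 rose and 2 fell. There the calls of Clca1 (higher), Clca3 (lower) and Stat6 (lower) ended under at least 1 alternative (adjusted p of 0.0101 to 0.0321). Clca1 and Clca3 are the symbols as deposited with the mm9 counts and were not matched to current gene names. In WT mice Clca3 averaged 3993 CPM and Clca1 6.73 CPM. Retnlb, a goblet cell protein that microbes and type 2 cytokines both induce, had 78.2, 61.3 and 70.6 CPM in Rag1-/- mice, 30.7, 37.8 and 53.9 CPM in co-housed mice, 0, 0.0932 and 0 CPM in separately housed mice and 0.742, 1.07 and 1.57 CPM in WT mice. The order of its group means was the reverse of that for Dclk1. Sprr2a1, a cornified envelope gene, rose in Rag1-/- against WT mice (log2 fold change 1.78, adjusted p = 5.5e-06) and in co-housed against separately housed mice (1.65, adjusted p = 5.4e-06). Dmbt1, a mucosal scavenger receptor, rose by 2.80 in the first comparison (adjusted p = 0.000172) and by 4.42 in the second (adjusted p = 6.3e-06). Il13ra1, a subunit of the interleukin 13 receptor, rose by 0.41 in the first (adjusted p = 0.000576, but 0.0219 with library size alone) and by 0.73 in the second (adjusted p = 1.1e-06).

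Other secretory lineages of the epithelium were counted beside the tuft genes. Of 11 enteroendocrine genes, 3 fell in Rag1-/- against WT mice and 6 in co-housed against separately housed mice, and none rose. Their summed CPM was 240.4 to 282 in Rag1-/-, 228 to 356 in co-housed, 409 to 436 in separately housed and 316 to 389 in WT mice. Gip, an incretin hormone, fell in Rag1-/- against WT mice (log2 fold change -0.97, adjusted p = 6.6e-05) and in co-housed against separately housed mice (-0.89, adjusted p = 6.3e-05). Of 8 goblet cell genes, 1 fell in Rag1-/- against WT mice, while 3 fell and 1 rose in co-housed against separately housed mice. The goblet sum was 10596 to 11206 CPM in Rag1-/-, 11179 to 11962 in co-housed, 15471 to 16387 in separately housed and 13262 to 14959 in WT mice. All Rag1-/- and co-housed mice were thus below all others in the goblet sum, as in the tuft sum. The goblet sum rests mainly on Fcgbp, Zg16 and Clca3, and the list did not move as a whole. Zg16 averaged 2295 CPM in Rag1-/- and 4004 CPM in WT mice, and Clca3 2611 and 3993 CPM. Fcgbp and Tff3 also had lower means in Rag1-/- mice, while Spink4, Agr2, Spdef and Ccl6 had higher ones. The median log2 fold change of the list was -0.04 there and -0.24 in co-housed against separately housed mice. Of 8 crypt and cell cycle genes, 2 rose and none fell in the first comparison and 5 rose and none fell in the second. The part of these lineages in the tuft gene results was not tested.

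The genes whose pattern over the 12 mice was nearest to that of Dclk1 or Trpm5 were found by the root-mean-square difference of log2 CPM, each gene centred on its own mean, among 15865 other tested genes. The nearest to Dclk1 apart from members were Fchsd2, Wdtc1, Slc2a8, Ppp2r5d and Hdac11, at 0.10 to 0.12 log2 units. The nearest to Trpm5 were Rtkn, Scin, Gstm7, Abcb1a and Prss23, at 0.17 to 0.18. The members were farther: Trpm5 lay 0.28 from Dclk1, 838th in likeness to Dclk1, while Dclk1 was 134th in likeness to Trpm5, and the member nearest to Dclk1 was Alox5, at 0.26 and 642nd. This distance is not scaled, so it also grows with the size of a gene's changes and with counting noise. The spread over the 12 mice was 0.71 log2 units for Trpm5 and 0.51 for Dclk1, against 0.46 to 0.50 for the 5 genes nearest to Dclk1. A rank by this distance is therefore not a measure of shared direction.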

How the data were processed

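The submitters' processing notes name bcl2fastq, alignment tools TopHat2 2.0.11 and Bowtie2 2.2.2.0, the mm9 build, featureCounts from Subread 1.4.5-p1 and DESeq2 1.12.3. Libraries were stranded mRNA libraries, per the labels' protocols. Nothing used here states the annotation, the strand setting of the counting or how multi-mapped reads were handled, so reads of antisense or near-identical genes could be assigned to either. The deposited values are raw counts per gene without normalization, per the file headers, beside gene positions and the length of merged exons in bases, which was used for levels per kilobase.

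From these counts, edgeR 4.0.16 in R 4.3.3 kept 15866 genes with filterByExpr over the 4 groups. Scaling factors (trimmed mean of M-values) ran from 0.926 to 1.07. A robust quasi-likelihood model with 1 term per group was fitted to all 12 libraries (8 residual degrees of freedom) and contrasts were tested two-sided, with Benjamini-Hochberg adjustment over all genes and a threshold of 0.01. CPM are counts scaled to the normalized library size, computed here and not by the authors, and an SE is the absolute log2 fold change over the square root of F. Intervals of read counts cover counting error only; without molecular identifiers, reads can be copies of 1 molecule. DESeq2 1.42.0, 2 other scalings, 2 other filters, a fit of the compared libraries alone and the removal of each mouse were tried as alternatives.

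The 10 members and the gene lists were chosen with earlier results of these data known. Besides the members, the text names up to 3 called genes of smallest p per list and comparison of the design, further genes needed to say which members of a list moved, and the 5 genes nearest in pattern to Dclk1 and to Trpm5. Promoter windows are from RefSeq on GRCm38.p6, and no position was converted between builds. Not every gene of the other lists is reported here by name.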

Additional observations from a re-analysis of the deposited data

How the results depend on the processing

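The calls of Dclk1 and Trpm5 in Rag1-/- against WT, co-housed against separately housed and co-housed against WT mice, and that of Alox5 in co-housed against separately housed mice, held in all 12 alternatives tried for each. Leaving out single mice gave 2 to 3 called tuft genes in Rag1-/- against WT mice, 3 to 7 in co-housed against separately housed mice (3 without TCRaCox3155 and 4 without TCRaSepxT3, main value 7), 2 in co-housed against WT mice and 0 to 1 in separately housed against WT mice. In the last comparison DESeq2 called 1 and edgeR without TCRaSepxT2 called 1, Dclk1 in either case, against a main value of 0. All genes called there numbered 2182, and 1281 to 1735 with a single mouse left out, the fewest without TCRaSepxT4; with 1 mouse fewer, fewer genes pass. Without single mice the log2 fold change of Avil in Rag1-/- against WT mice ran from -0.23 to 0.00, that of Sucnr1 from -0.50 to 0.06, and that of Gfi1b in separately housed against WT mice from -0.44 to 0.45, each passing the sign of the main value; the cause was not tested. Il25 and Gfi1b are limited by depth. No paired analysis was possible because the labels give each mouse its own number and no pairing. Cage, colony and time of collection cannot be told apart from the groups.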

Other observations

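Lists for other cells of the gut wall were counted beside the tuft genes. Of 7 tested genes of mast cells and basophils, none was called in Rag1-/- against WT mice, and in co-housed against separately housed mice Hdc, which makes histamine, rose (log2 fold change 1.84, SE 0.54, adjusted p = 0.00899) and Kit, the stem cell factor receptor, fell (-0.55, SE 0.13, adjusted p = 0.00243). Of 6 smooth muscle genes, none was called in Rag1-/- against WT mice and 1, Tagln, fell in co-housed against separately housed mice (-0.40, SE 0.10, adjusted p = 0.00392). The Hdc, Kit and Tagln calls ended in 6, 5 and 4 alternatives, with adjusted p of 0.0111 to 0.0454. Of 5 tested eosinophil genes, 1 fell in Rag1-/- against WT mice (Prg2), while 2 rose (Ear2 and Prg2) and 1 fell (Siglec5) in co-housed against separately housed mice. The Siglec5 call was also counted in the wider list of tuft markers. The eosinophil granule gene Prg2 had 0 reads in the 3 Rag1-/- mice, 145 in co-housed, 9 in separately housed and 127 in WT mice, and Epx, the eosinophil peroxidase gene, had 0 in Rag1-/-, 0 in co-housed, 13 in separately housed and 4 in WT mice.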
